A study of Mus musculus with 9 samples.

Results

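The genes that make and break down cyclic nucleotides were followed in mouse brain RNA. Members were the rows of the count table whose symbol is Adcy with a number, or Pde with a number from 1 to 11 and a letter, leaving out Pde10a. This rule found 33 of the 18138 genes in the table, 10 of them adenylyl cyclases and 23 Pde genes. Of the 33, 30 had enough counts to enter the tests of 14756 genes. The photoreceptor genes Pde6c, Pde6g and Pde6h did not, with 38, 26 and 16 counts over all libraries.

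The study holds 9 libraries in 3 groups of 3: brain of mice labelled control, brain of mice labelled as having had MCAO surgery, and brain of mice given hypidone hydrochloride after MCAO surgery. MCAO is occlusion of the middle cerebral artery, a surgical model of ischaemic stroke. The treatment protocol gives hypidone hydrochloride (YL-0919, the compound named in the series title) at 5 mg/kg for 7 days. No genotype, strain, age, vehicle, brain region or hemisphere is given, nor whether control mice had a sham operation, in the sources used here. Libraries are named by group and by the number in their title, and each held between 32075682 and 37325027 gene counts. Whether the libraries of a group come from separate mice is not stated. The p-values therefore describe the spread among these libraries, and that spread may be technical.

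Adenylyl cyclases turn ATP into cyclic AMP when a receptor signals through a stimulatory G protein. Members of the family differ in what else moves them: some are stimulated by calcium and calmodulin, some by G protein beta-gamma subunits, and some are inhibited by calcium. Phosphodiesterases end the signal by hydrolysing cyclic AMP, cyclic GMP or both. In brain the balance of these enzymes shapes synaptic plasticity and the output of striatal neurons, and in immune cells cyclic AMP restrains inflammatory responses.

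Libraries differed in the brain regions and cells whose marker genes they held, and this was measured before the members were compared. Control 5 had a summed level of 484 CPM (counts divided by TMM-adjusted library sizes in edgeR) over 8 hippocampal marker genes, against 18.5 to 23.5 CPM in the other 8 libraries. Its 7 cortical marker genes summed to 249 CPM, against 1220 and 1290 CPM in the other controls. MCAO 5 had 1640 CPM over 5 macrophage marker genes, MCAO 6 170 CPM and MCAO 4 26.4 CPM, against 14.1 to 17.8 CPM in control and 29.1 to 103 CPM with hypidone. The 6 microglial genes summed to 448 to 1350 CPM in MCAO and 393 to 419 CPM in control. By edgeR's test, 3 of the 5 macrophage genes and 2 of the 6 microglial genes were higher in MCAO than in control, and 1 of 6 neuronal genes was lower. The 6 neuronal genes, such as Rbfox3, Snap25 and Syt1, were present in every library and summed to 4410 to 8360 CPM in MCAO, 6650 to 10600 CPM in control and 8970 to 10200 CPM with hypidone. In bulk tissue, fewer cells of a type and less RNA per cell cannot be told apart.

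**Figure D1:**
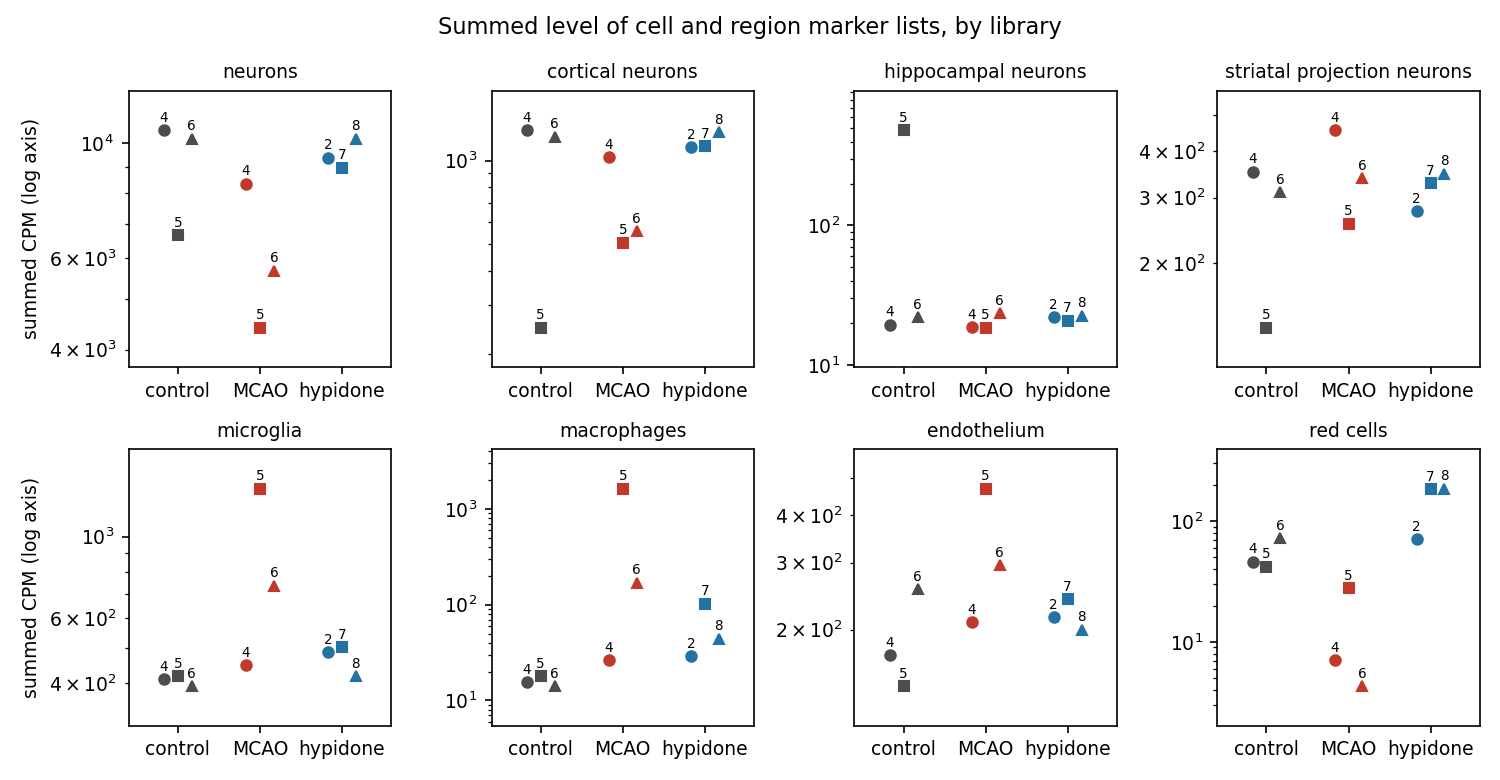
Summed CPM (log axis) of 8 marker lists in each of the 9 libraries, with the title number beside each point. Control 5 stands at 484 CPM for hippocampal neurons and 249 CPM for cortical neurons, and MCAO 5 at 1640 CPM for macrophages and 1350 CPM for microglia.

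Levels between genes are compared in the deposited FPKM, which divides by gene length. Pde2a, which hydrolyses both nucleotides and is stimulated by cyclic GMP, had the highest mean over the 9 libraries, 67.9 FPKM. Adcy1, a calcium-stimulated cyclase of neurons, followed at 62.9 FPKM. The calmodulin-dependent Pde1b and Pde1a stood at 39.7 and 32.2 FPKM, the cyclase gene Adcy2 at 38.6 FPKM and Pde6d at 29.3 FPKM. Pde6d takes its name from the photoreceptor enzyme, but its protein is a chaperone that carries prenylated proteins and hydrolyses no nucleotide. Ranges of neighbours in this order overlapped: Pde2a lay between 57.1 and 75.1 FPKM in single libraries and Adcy1 between 49.9 and 77.0 FPKM.

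In all, 10 members had a mean of at least 10 FPKM and 13 a mean under 1 FPKM. Pde6a, Pde6c, Pde6g, Pde6h and Adcy10, which encodes the soluble cyclase, were under 0.1 FPKM. Adcy1 made up 42.3% of the summed FPKM of the 10 cyclases (38.0% to 46.2% in single libraries) and Adcy2 25.7%. Among the Pde genes Pde2a made up 30.1%, Pde1b 17.6% and Pde1a 14.2%. Summed over the cyclases, the level was 157 ± 15.9 FPKM in control, 130 ± 15.8 in MCAO and 159 ± 12.7 with hypidone (SD, n = 3). Summed over the 23 Pde genes it was 223 ± 12.9, 226 ± 14.6 and 227 ± 19.0 FPKM.

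**Figure D2:**
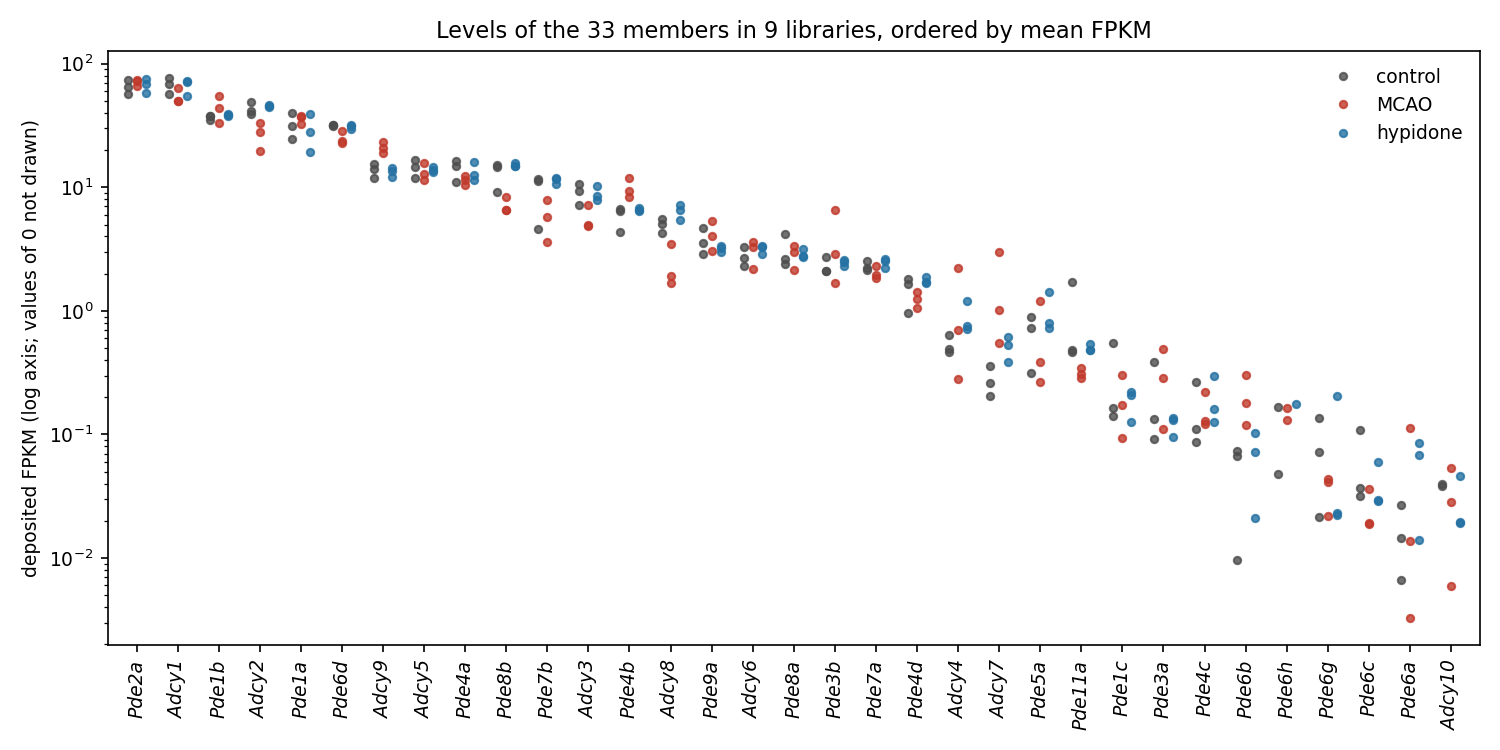
Deposited FPKM of the 33 members (log axis) in each library, ordered by the mean over 9 libraries and coloured by group, with values of 0 not drawn. Levels run from 67.9 FPKM for Pde2a to 0.0278 FPKM for Adcy10.

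Control and MCAO were compared to see what differed in brain after the occlusion. The cyclase genes Adcy3 and Adcy8 fell, Adcy7 and Adcy9 rose, and among the Pde genes Pde4b rose while Pde8b and Pde6d fell. Thus 3 of the 30 tested members were higher and 4 were lower, 23.3% in all, counting those whose Benjamini-Hochberg p over 14756 genes was under 0.05 in edgeR's quasi-likelihood test. Over all tested genes 10.6% were higher and 9.81% lower, 20.4% in all, so the share of members was close to that of all genes. The median log2 fold change was -0.09 over the members and 0.01 over all tested genes. On GRCm38 (GENCODE M21) Adcy8 lies at chr15:64697084-64922296, Adcy7 at chr8:88272403-88329962, Adcy9 at chr16:4287529-4420498 and Adcy2 at chr13:68620043-68999541. Pde4b lies at chr4:102087543-102607259, Pde8b at chr13:95024454-95250336 and Pde6d at chr1:86542994-86582629.

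Adcy3 and Adcy8 encode cyclases that calcium and calmodulin stimulate, and Adcy3 is known from neuronal primary cilia. Adcy8 was at 28.9, 21.2 and 26.1 CPM in control 4, 5 and 6 and at 18.6, 7.81 and 9.36 CPM in MCAO 4, 5 and 6. The groups did not overlap, with MCAO 4 the nearest to control. Its log2 fold change was -1.09 ± 0.30 (SE; edgeR adjusted p = 0.0355), from group means of 25.4 ± 3.89 and 11.9 ± 5.86 CPM (SD, n = 3). The summed neuronal genes were also lowest in MCAO 5 and 6, at 4410 and 5680 CPM, and their part in the result was not tested.

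Adcy3 was at 35.2, 49.6 and 45.1 CPM in the controls and at 25.0, 31.7 and 22.3 CPM in MCAO 4, 5 and 6, without overlap. It fell by 0.72 ± 0.18 on the log2 scale (edgeR adjusted p = 0.0276). In GENCODE M21, 1380 exon bases of Adcy3 (chr12:4133103-4213525, plus strand) are shared with Cenpo on the opposite strand, and the strand setting of the counting is not given in the sources used here. Cenpo itself held 69 to 200 counts in a library and Adcy3 813 to 1828. The third gene of this kind, Adcy1, had a log2 fold change of -0.33 ± 0.20 (edgeR adjusted p = 0.252) and overlapping groups.

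Adcy2, Adcy4 and Adcy7 encode the cyclases that G protein beta-gamma subunits stimulate, and Adcy7 is the form best known from blood and immune cells. Adcy7 was at 1.47, 1.85 and 2.58 CPM in control and at 4.15, 19.7 and 6.95 CPM in MCAO 4, 5 and 6. All MCAO libraries lay above all controls, and MCAO 5 stood far above the others. Adcy7 rose by 2.38 ± 0.55 on the log2 scale (edgeR adjusted p = 0.0195), or by 1.51 without MCAO 5 (adjusted p = 0.0185). The order of the MCAO libraries was the same for Adcy7 as for the summed macrophage and microglial genes, lowest in MCAO 4 and highest in MCAO 5. The summed genes of endothelium and those of pericytes and smooth muscle had this order too, so it does not single out 1 cell type. The part of any of these cells in the result was not tested.

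Adcy2 was at 178, 164 and 209 CPM in control and at 149, 76.2 and 115 CPM in MCAO, a log2 fold change of -0.70 ± 0.22 that missed the threshold (edgeR adjusted p = 0.0504). The groups did not overlap. Adcy4 had 0.90 ± 0.61 (edgeR adjusted p = 0.312), with 7.26 CPM in MCAO 5 against 1.05 and 2.42 CPM in MCAO 4 and 6.

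Adcy9, the cyclase that forskolin barely activates, moved the other way from Adcy3 and Adcy8. It was at 117, 145 and 136 CPM in control 4, 5 and 6 and at 237, 184 and 174 CPM in MCAO 4, 5 and 6. No MCAO library overlapped with control, and MCAO 4 was the highest. Adcy9 rose by 0.58 ± 0.15 on the log2 scale (edgeR adjusted p = 0.0275).

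The calcium-inhibited cyclase genes did not pass the test. Adcy5, the main cyclase of striatal neurons, had -0.14 ± 0.17 and Adcy6 0.08 ± 0.18, with overlapping groups. Adcy10 had only 77 counts over all libraries.

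Of the 8 genes for cyclic AMP-specific phosphodiesterases, Pde4b rose and Pde8b fell. Pde4b, a target of rolipram and a regulator of inflammatory signalling, was at 141, 89.1 and 135 CPM in control and at 262, 160 and 190 CPM in MCAO 4, 5 and 6. The groups did not overlap, with the lowest control value in control 5. Its log2 fold change was 0.74 ± 0.22 (edgeR adjusted p = 0.0407).

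Pde8b encodes a high-affinity enzyme for cyclic AMP. It was at 137, 79.9 and 131 CPM in control and at 78.0, 53.6 and 55.8 CPM in MCAO, so that control 5 lay just above MCAO 4. It fell by 0.89 ± 0.22 on the log2 scale (edgeR adjusted p = 0.0231), and by 1.10 without control 5 (adjusted p = 0.00715). Antisense annotations not in the count table overlap exons of Pde8b over 447 bases and of Adcy2 over 189 bases. The other 6 genes of this kind had log2 fold changes between -0.70 for Pde7b and -0.04 for Pde4c, none past the test.

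None of the 7 genes for phosphodiesterases of both nucleotides passed the test, and neither did the 4 tested genes for enzymes of cyclic GMP. Pde11a came nearest, at -1.51 ± 0.48 (edgeR adjusted p = 0.0529), but had only -0.63 without control 5 (edgeR adjusted p = 0.119). Pde6b had 1.96 ± 0.80 (edgeR adjusted p = 0.110) on 94 counts over all libraries. Pde2a and Pde1b, the most abundant, had 0.09 ± 0.15 and 0.24 ± 0.19. Pde6d was at 50.6, 49.4 and 50.1 CPM in control and at 37.8, 41.1 and 35.9 CPM in MCAO. The controls lay close together, and all MCAO libraries lay below them. Pde6d fell by 0.39 ± 0.10 on the log2 scale (edgeR adjusted p = 0.0282).

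Control and MCAO values were fully separate for 10 of the 30 tested members, or 33.3%, beside 33.5% of all tested genes. By the authors' deposited table, 8 members had a q under 0.05, among them the 7 called here. The remaining 1, Pde11a, had a fold change of 0.351 and a q of 0.0471 in the authors' deposited table. How many of all genes had such a q is not given here. That table comes from the same study, so the shared calls are not independent of each other.

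The 7 calls made here depend on fitting all 9 libraries together. A fit of control and MCAO alone called no member, with an adjusted p between 0.0682 for Adcy7 and 0.112 for Pde4b among the 7. The share of all tested genes called in that fit, or without single libraries, is not given here. Calls were lost without control 4 for Adcy7, Adcy8, Adcy9, Pde4b, Pde6d and Pde8b (adjusted p from 0.0679 to 0.106), without control 5 for Adcy3 and Pde4b (0.0597 and 0.0800), and without control 6 for all 7 (0.0519 to 0.0959). They were lost without MCAO 4 for Pde4b (0.0773), without MCAO 5 for Adcy8 (0.0626) and without MCAO 6 for Adcy3, Adcy8, Pde4b, Pde6d and Pde8b (0.0838 to 0.122). Calls were also lost without single hypidone libraries, which enter this comparison only through the joint fit. This held without hypidone 2 for Adcy8 and Pde4b (0.0595 and 0.0664). It held without hypidone 7 for Adcy3, Adcy8, Adcy9, Pde4b and Pde6d (0.0502 to 0.0701) and without hypidone 8 for Adcy8, Pde4b and Pde6d (0.0536 to 0.0704). Whether the spread, the number of libraries or the adjustment over all genes moved these p-values was not tested. Scaling by library totals ended the call of Pde6d, and limma on log2 of FPKM ended those of Adcy3, Adcy7 and Pde6d under at least 1 pseudocount or filter.

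**Figure D3:**
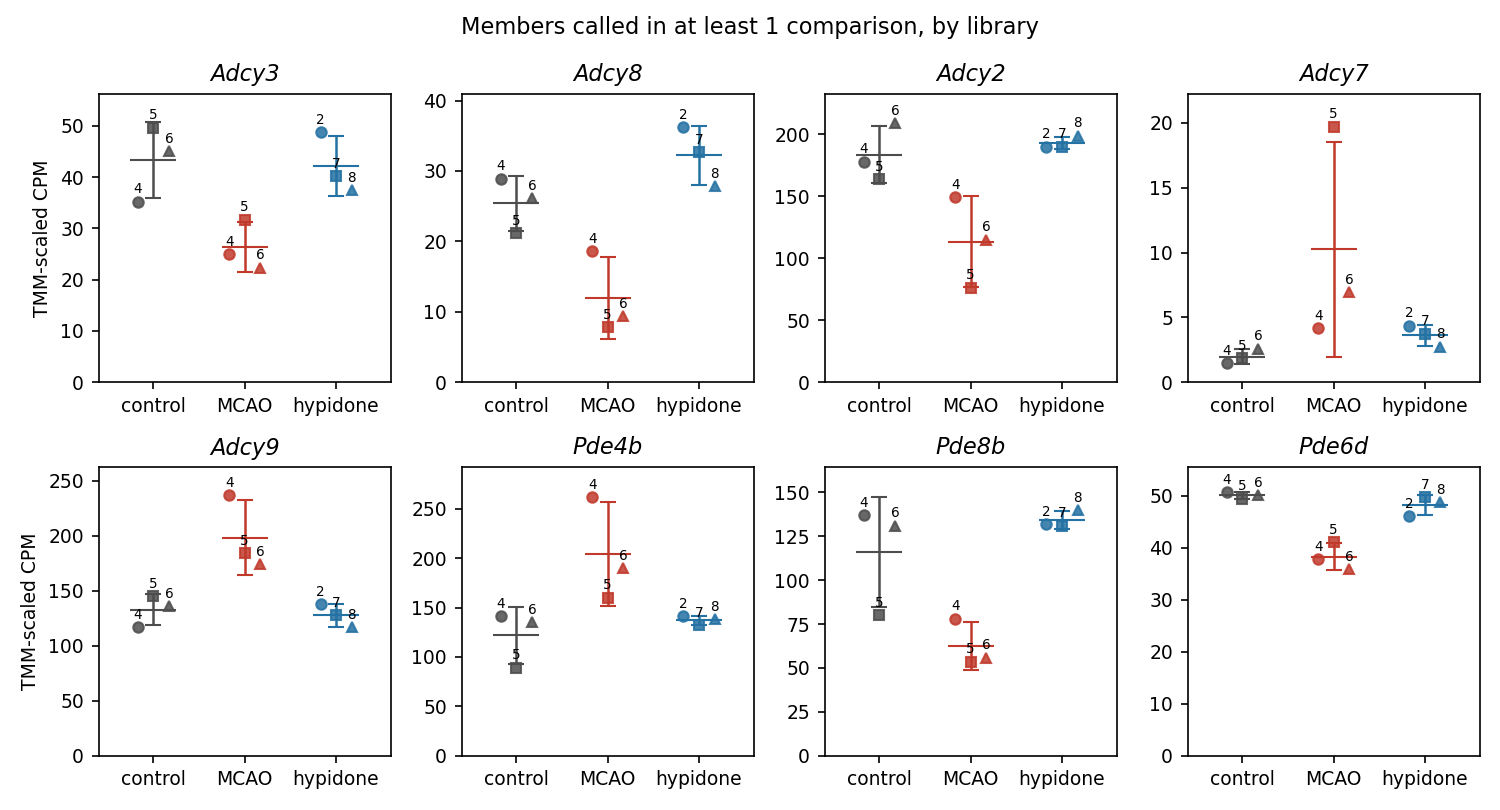
TMM-scaled CPM of the 8 members called in at least 1 comparison, 1 point per library with its title number, and bars for the group mean ± SD (n = 3). Adcy3, Adcy8, Adcy2, Pde8b and Pde6d are lowest in MCAO, and Adcy7, Adcy9 and Pde4b highest by group mean. Hypidone values overlap with the controls except for Adcy7, at 2.75 to 4.35 CPM against 1.47 to 2.58.

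The comparison of hypidone with MCAO addresses the effect of the drug in operated mice. It shares the MCAO libraries with the comparison above, so that opposite signs in the 2 comparisons are not independent of each other. Vehicle and time since surgery are not given for either group, so a difference in them and the drug cannot be told apart. Adcy2, Adcy3, Adcy8 and Pde8b were higher with hypidone and Adcy9 was lower. That is 13.3% of the 30 members higher and 3.33% lower, 16.7% in all, beside 8.23% and 8.28% of all tested genes, 16.5% in all. The median log2 fold change was 0.09 over the members and -0.04 over all tested genes.

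Adcy8 was at 36.2, 32.7 and 27.8 CPM in hypidone 2, 7 and 8. Every one of these values lay above the highest MCAO value of 18.6 CPM. It rose by 1.43 ± 0.31 on the log2 scale (edgeR adjusted p = 0.0171), a 95% interval of 0.74 to 2.12.

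Adcy3 was at 48.8, 40.2 and 37.5 CPM with hypidone and rose by 0.68 ± 0.18 (edgeR adjusted p = 0.0378). Adcy2 was at 190, 190 and 199 CPM, a narrow range beside 76.2 to 149 CPM in MCAO, and rose by 0.77 ± 0.22 (edgeR adjusted p = 0.0428). Neither gene overlapped between the groups. Adcy1 had 0.29 ± 0.20 (edgeR adjusted p = 0.323), with values of 904, 873 and 682 CPM beside 836, 574 and 596 CPM in MCAO.

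Adcy9 was at 138, 128 and 117 CPM with hypidone, all below the lowest MCAO value of 174 CPM. It fell by 0.64 ± 0.15 on the log2 scale (edgeR adjusted p = 0.0230). Adcy7, at 4.35, 3.75 and 2.75 CPM with hypidone, overlapped with MCAO 4 at 4.15 CPM. Its log2 fold change was -1.50 ± 0.53 (edgeR adjusted p = 0.0794), or -0.64 without MCAO 5 (adjusted p = 0.221).

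Pde8b had the lowest p of the members. It was at 132, 131 and 140 CPM with hypidone against 53.6 to 78.0 CPM in MCAO, and rose by 1.10 ± 0.22 on the log2 scale (edgeR adjusted p = 0.0137), a 95% interval of 0.61 to 1.59. Pde7b, another cyclic AMP-specific enzyme, was at 56.3, 62.9 and 63 CPM with hypidone and at 44.7, 28.2 and 18.7 CPM in MCAO 4, 5 and 6. Its groups did not overlap, but its log2 fold change of 0.99 ± 0.38 missed the threshold (edgeR adjusted p = 0.102).

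Pde4b was at 141, 132 and 138 CPM with hypidone, below the lowest MCAO value of 160 CPM, and had -0.57 ± 0.22 (edgeR adjusted p = 0.0955). Pde4d, its close relative, had 0.53 ± 0.23 (edgeR adjusted p = 0.141) with an opposite sign. Pde6d was at 46.1, 49.7 and 48.8 CPM and had 0.33 ± 0.10 (edgeR adjusted p = 0.0513). These 3 genes did not overlap between the groups either.

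In all, 12 of 30 members, or 40.0%, did not overlap between hypidone and MCAO, beside 39.9% of all tested genes. The authors' deposited table had a q under 0.05 for 10 members in this comparison, 7 higher and 3 lower, and the 5 called here were among them. The others were Pde7b, Pde4d and Pde6d, with fold changes of 1.98, 1.44 and 1.26 in the authors' deposited table, and Adcy7 and Pde4b, with 0.354 and 0.670.

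Leaving out hypidone 2, 7 or 8 ended the calls of all 5 members, with adjusted p-values from 0.0508 to 0.131. Those of Adcy2, Adcy3, Adcy8 and Pde8b were lost without MCAO 6 (0.0606 to 0.124), and that of Adcy3 without MCAO 4 (0.0569). Control libraries enter this comparison only through the joint fit. The call of Adcy2 was lost without control 4 (0.0656), and those of Adcy2 and Adcy3 without control 6 (0.0609 and 0.0602). A fit of hypidone and MCAO alone ended the call of Adcy2 (adjusted p = 0.0685), and library totals and limma on FPKM ended that of Adcy3. Without control 5, 7 members were called higher in place of 4, and without MCAO 4 or MCAO 5, 2 were called lower in place of 1. The share of all tested genes called in those fits is not given here. All 5 red cell genes were called higher with hypidone than in MCAO by edgeR. They summed to 71.3 to 186 CPM with hypidone, 4.31 to 28.0 CPM in MCAO and 41.9 to 72.7 CPM in control. MCAO was thus below control as well, and the part of these genes in the result was not tested.

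**Figure D4:**
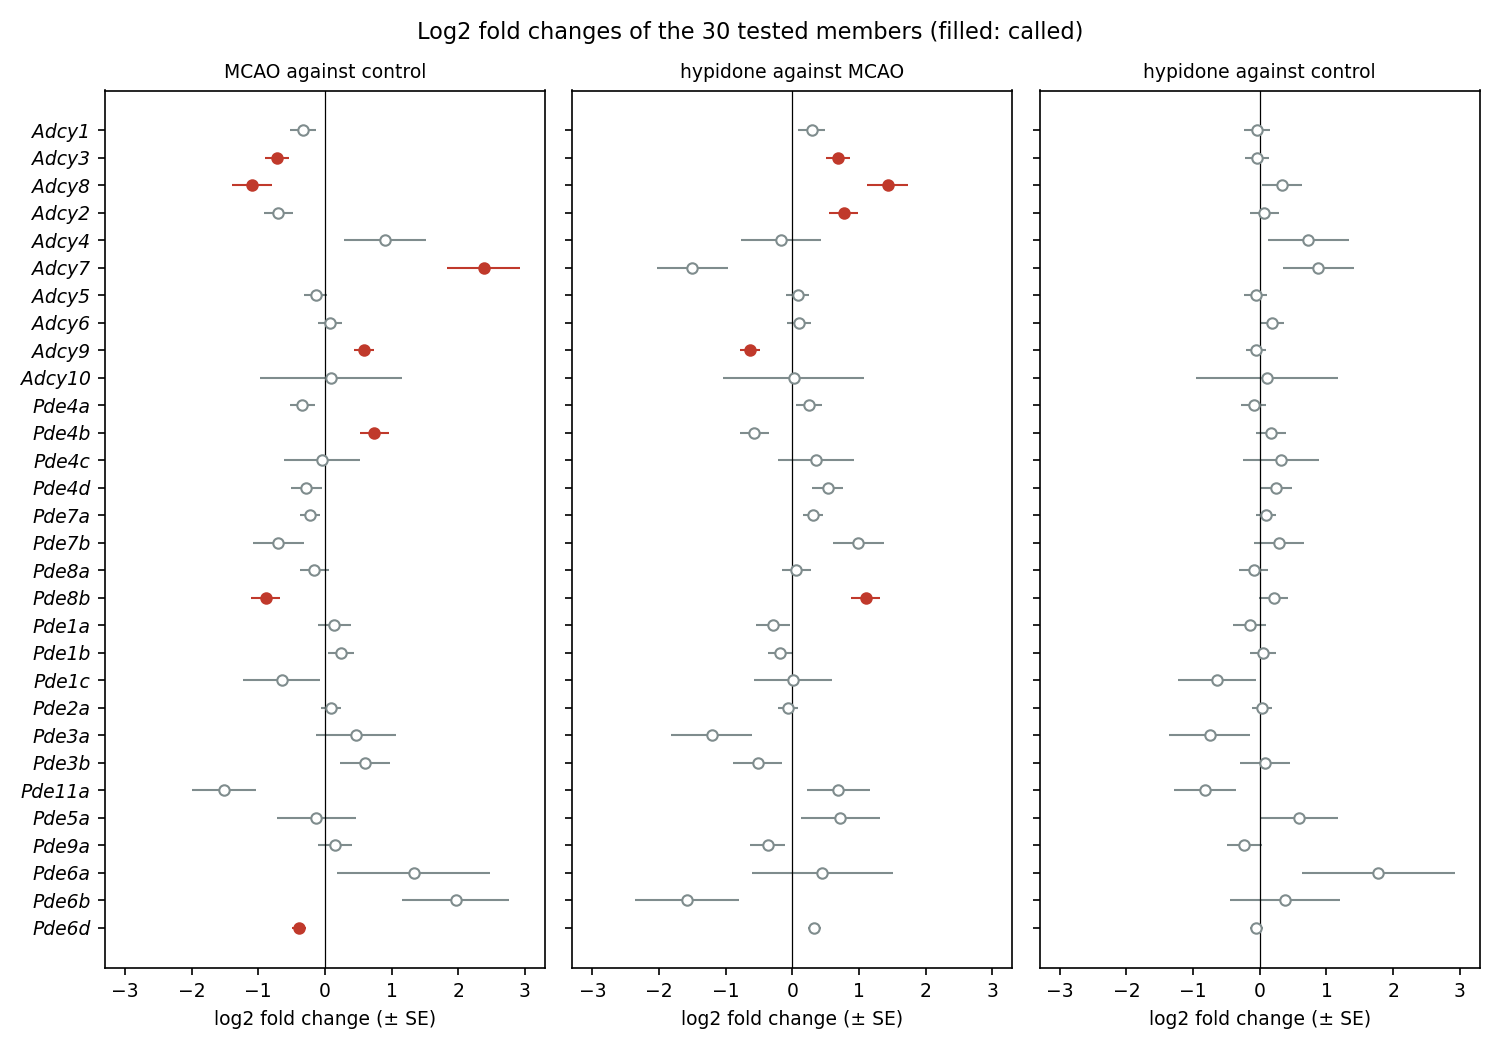
Log2 fold changes with SE from the quasi-likelihood fit for the 30 tested members, grouped by the role of their protein, in 3 comparisons, with filled points for an adjusted p under 0.05. Filled points stand at 7 members for MCAO against control, 5 for hypidone against MCAO and none for hypidone against control.

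Hypidone against control gave no member past the test in edgeR, in DESeq2 or in limma, and 0 of 30 had an unadjusted p under 0.05. Over all tested genes edgeR called 0% too. Among the 8 members called elsewhere the log2 fold changes lay between -0.06 for Adcy9 and 0.88 for Adcy7. For Adcy9 the 95% interval ran from -0.39 to 0.28, for Adcy3 from -0.45 to 0.38 and for Pde6d from -0.28 to 0.17. For Adcy8 it ran from -0.33 to 1.02 and for Adcy7 from -0.32 to 2.08, which leaves room for a large difference. Only Adcy7 and Adcy4 of the 30 members, or 6.67%, did not overlap between these groups, beside 6.57% of all tested genes. Both were higher in all hypidone libraries, Adcy7 at 2.75 to 4.35 CPM against 1.47 to 2.58 and Adcy4 at 2.58 to 4.31 CPM against 1.69 to 2.31.

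Several members varied between libraries of a group more than between groups. In control 5, Pde11a stood at 14.9 CPM against 4.34 and 4.15 CPM in control 4 and 6, which is 3.51 times the mean of those libraries. Pde1c and Pde3a were 3.52 and 3.34 times as high there. Pde7b, in contrast, was at 24.4 CPM in control 5 against 63.8 and 60.5 CPM, a ratio of 0.393. These differences went with the hippocampal and cortical marker levels of control 5 given above. Control 5 also stood apart in other lists. It had 184 CPM for choroid plexus against 5.43 and 1.95 CPM in control 4 and 6, and 6680 CPM for oligodendrocytes against 3120 and 4070 CPM. For striatal projection neurons it had 134 CPM against 352 and 310 CPM. The part of brain region or cell make-up was not tested.

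In MCAO 5, 8 of the 30 tested members exceeded 2 times the mean of MCAO 4 and 6, more than in any other library. The share of all tested genes that did so is not given here. MCAO 5 also stood apart over all tested genes. On their first principal component, with 47.3% of the variance, it lay at 103, MCAO 6 at 64.4 and MCAO 4 at 11. The count is therefore not shown to be particular to the members. Among the 8 were Adcy4, Adcy7, Pde3b, a cyclic GMP-inhibited enzyme best known from fat and liver, and Pde5a, the cyclic GMP-specific target of sildenafil in smooth muscle. Adcy4 was 4.18 times, Pde5a 3.29 times and Pde3b 2.62 times as high. All 8 except Pde3b had a mean under 1 FPKM over the 9 libraries, and Pde6a and Adcy10 had only 98 and 77 counts in all. The 5 endothelial marker genes summed to 470 CPM in MCAO 5 and to 209 and 296 CPM in MCAO 4 and 6. The 5 genes of pericytes and smooth muscle summed to 459 CPM there and to 139 and 156 CPM in the other 2, and the part of these cells was not tested. Some abundant members were lowest there: Adcy1 was at 574 CPM, Adcy2 at 76.2 CPM and Pde1b at 118 CPM in MCAO 5, the lowest values of all 9 libraries. Others were not: Pde2a was at 361 CPM in MCAO 5 and at 342 CPM in control 4, and Pde6d was highest of its group in MCAO 5.

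Other genes of the pathway were taken from 7 lists, chosen with earlier results of these data known. Their counts stand beside the 20.4% of all tested genes called with MCAO and the 16.5% called between hypidone and MCAO. For fits that leave out a library, the share of all tested genes is not given here. In the list of protein kinase A subunits and inhibitors, 1 of 9 genes rose with MCAO and 1 fell. Prkar2b, a regulatory subunit of neurons, fell by 1.14 ± 0.29 on the log2 scale (edgeR adjusted p = 0.0265) and was higher with hypidone than in MCAO by 1.29 ± 0.29 (edgeR adjusted p = 0.0207). It was at 35.7 CPM in control 5, near the 23.4 to 34.7 CPM of MCAO, and at 83.5 and 79.1 CPM in the other controls. Pkia, the gene of a kinase inhibitor peptide, rose by 0.48 ± 0.12 with MCAO and fell by 0.58 ± 0.12 with hypidone (edgeR adjusted p = 0.0258 and 0.0165). With MCAO the count of lower genes was 0 without control 4, control 6 or MCAO 6, 2 without control 5 and 3 without MCAO 4, and that of higher genes was 0 without control 4, control 6, MCAO 6 or any 1 hypidone library. Between hypidone and MCAO both counts were 0 without MCAO 6 or any 1 hypidone library, and the count of higher genes was 2 without control 5 and 3 without MCAO 4.

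Anchoring proteins tether the kinase near its targets, often together with phosphodiesterases. Of 11 tested anchoring genes, 3 rose and 2 fell with MCAO, and in hypidone against MCAO the same 5 were called with the opposite sign. Akap5, the anchor of the postsynaptic density, was at 102, 78.6 and 104 CPM in control, 58.3, 52.2 and 54.0 CPM in MCAO and 107, 100 and 106 CPM with hypidone. Akap1, the mitochondrial anchor, fell by 0.80 ± 0.13 with MCAO, and Akap8 and Akap12 rose by 0.80 ± 0.15 and 2.02 ± 0.36 (edgeR adjusted p between 0.00613 and 0.00984). The median log2 fold change of this list was 0.13 with MCAO. Between hypidone and MCAO the 3 lower genes became 0 without MCAO 6, hypidone 2 or hypidone 7 and 1 without hypidone 8, and the 2 higher genes became 1 without hypidone 2. With MCAO the 3 higher genes became 2 without control 4, control 6 or MCAO 6, and the 2 lower became 3 without control 5.

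Of the 6 G alpha genes acting on adenylyl cyclase, Gnal alone passed the test in the fit of all libraries. Gnal, the stimulatory subunit of olfactory and striatal neurons, fell by 0.64 ± 0.18 with MCAO and was higher with hypidone than in MCAO by 0.68 ± 0.18 (edgeR adjusted p = 0.0398 and 0.0373). Gnas, its general counterpart, had -0.26 ± 0.18 with MCAO (edgeR adjusted p = 0.303). The call of Gnal with MCAO was lost without any 1 library except MCAO 4, whose removal raised the count of lower genes to 3. Between hypidone and MCAO it was lost without control 4, control 6, MCAO 5, MCAO 6 or any 1 hypidone library, and the count of higher genes was 3 without MCAO 4.

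In the CREB list 1 of 8 genes rose with MCAO. Crtc2, a coactivator of CREB, was at 16.2, 16.9 and 16.4 CPM in control, 33.9, 26.5 and 36.4 CPM in MCAO and 17, 17.8 and 16.9 CPM with hypidone. It rose by 0.97 ± 0.14 and fell by 0.91 ± 0.14 (edgeR adjusted p = 0.00516 and 0.00673), while Creb1 had -0.10 ± 0.14 with MCAO (edgeR adjusted p = 0.642). Among 10 genes that cyclic AMP is known to induce, Sik1 rose and Bdnf fell with MCAO, by 2.63 ± 0.46 on the log2 scale for Bdnf (edgeR adjusted p = 0.00780), and Bdnf rose with hypidone. Of 14 tested genes for guanylyl cyclases, nitric oxide synthases and protein kinase G, the receptor cyclase gene Gucy2g fell and Gucy2c rose with MCAO, and Gucy2g alone was called with hypidone, upward. Gucy2g was at 19.5, 6.00 and 17.6 CPM in control, 2.84, 1.25 and 1.59 CPM in MCAO and 16.2, 13.9 and 14.8 CPM with hypidone, whereas Gucy2c averaged at most 0.530 CPM in any group. The call of Gucy2c was lost without any 1 of the controls, MCAO 5, MCAO 6, hypidone 7 or hypidone 8, and with no filter on low counts. The count of lower genes in that list was 2 without MCAO 4. Among CREB genes the count higher with MCAO was 3 without control 5 and 2 without MCAO 4 or MCAO 5, and the count lower with hypidone was 2 without any 1 of these. Sik1's list had no higher gene with MCAO without control 5, control 6, MCAO 6 or hypidone 7 and 2 without MCAO 5, while its counts that held Bdnf rose to 4 without MCAO 6. None of 3 tested genes for Epac and cyclic nucleotide-gated channels passed.

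Promoter windows bear on the members because CREB, the factor that cyclic AMP activates, binds the element TGACGTCA or its shorter form TGACG. Windows from 250 bases before to 50 after a start site were taken from RefSeq on GRCm38.p6, the build that mm10 names, and 24 of the 33 members had at least 1. The full element, searched on both strands, was in none of the 47 windows of these members and in 1.79% of all 32851 windows. The short form, which the full element contains, was in 9 of the 47 windows, or 19.1%, beside 20.8% of all windows. Counted by gene it was in 9 of 24 members and in 23.0% of all genes, but a gene with more windows has more chances of a match, and the members have more windows per gene than all genes do. Among the called members, 4 of 17 windows held it, or 23.5%, 1 window each in Adcy7, Adcy9, Pde4b and Pde8b. An AP-1 element, TGACTCA, was in 6.38% of the members' windows and 5.2% of all windows, and the forkhead element GTAAACA in 6.38% and 3.65%. The shares were thus close to the background or rested on 3 windows. A match describes letters in a window and no more. No window of the called genes Adcy2, Adcy3 and Pde6d held it, and Adcy8 had no window. A link between the short form and the direction of a change was not tested. Shown are the windows that hold the short form in Adcy7, Adcy9 and Pde4b, which rose with MCAO, and in Pde8b, which fell. They are chr8:88282742-88283041 (plus strand) for Adcy7, chr16:4420449-4420748 (minus) for Adcy9, chr4:102421305-102421604 (plus) for Pde4b and chr13:95223001-95223300 (minus) for Pde8b, with the short form or its reverse complement CGTCA in capitals.
Adcy7: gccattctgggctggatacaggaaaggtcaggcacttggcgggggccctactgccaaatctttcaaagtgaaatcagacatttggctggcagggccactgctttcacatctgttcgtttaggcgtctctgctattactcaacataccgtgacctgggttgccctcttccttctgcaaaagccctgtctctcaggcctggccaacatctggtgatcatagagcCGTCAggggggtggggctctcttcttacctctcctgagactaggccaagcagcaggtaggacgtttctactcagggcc
Adcy9: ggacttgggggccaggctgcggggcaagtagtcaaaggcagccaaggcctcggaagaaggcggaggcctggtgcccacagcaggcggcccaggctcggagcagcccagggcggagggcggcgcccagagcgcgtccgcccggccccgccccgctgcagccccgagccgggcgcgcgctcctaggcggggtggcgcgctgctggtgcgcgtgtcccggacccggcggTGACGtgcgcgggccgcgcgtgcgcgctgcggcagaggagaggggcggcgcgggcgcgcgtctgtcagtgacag
Pde4b: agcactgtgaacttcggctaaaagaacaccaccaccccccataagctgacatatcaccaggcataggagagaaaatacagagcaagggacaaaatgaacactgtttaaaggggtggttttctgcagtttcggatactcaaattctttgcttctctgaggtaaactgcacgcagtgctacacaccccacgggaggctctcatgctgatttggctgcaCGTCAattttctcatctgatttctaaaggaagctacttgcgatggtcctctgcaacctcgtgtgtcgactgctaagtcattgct
Pde8b: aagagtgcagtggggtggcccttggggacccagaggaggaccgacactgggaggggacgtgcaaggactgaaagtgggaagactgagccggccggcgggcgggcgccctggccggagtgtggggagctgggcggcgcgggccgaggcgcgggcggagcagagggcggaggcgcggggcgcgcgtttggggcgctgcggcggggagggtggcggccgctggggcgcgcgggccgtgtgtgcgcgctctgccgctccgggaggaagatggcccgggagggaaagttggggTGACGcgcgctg
Measured from the start site of the window shown, the short form began 28 bases before it in Adcy7, 24 in Adcy9 and 34 in Pde4b. In Pde8b it began 38 bases after it. Adcy7, Pde4b and Pde8b also had windows at other start sites, without the short form, and which start was in use here is not known. Guanine and cytosine made up 78.3% of the window of Adcy9 and 76.3% of that of Pde8b, against 54.7% for Adcy7 and 47.0% for Pde4b.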

How the data were processed

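RNA of mouse brain was sequenced in 9 libraries. Per the labels' protocols, TRIzol was used for extraction and a VAHTS Universal V6 kit for libraries. Files deposited by the authors hold raw counts by gene symbol and FPKM, which divide those counts by gene length and library total. The authors' deposited comparison tables hold a fold change (a ratio) and a q-value. Both mm10 and DESeq2 are named, with no role or version, in the submitters' processing notes. For aligner, counter and strand, the setting is not given in the sources used here. Columns were matched to samples by title.

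Counts were filtered with edgeR's filterByExpr, scaled with TMM and fitted in 1 quasi-likelihood model of 3 groups (edgeR 4.0.16, R 4.3.3), with two-sided tests and Benjamini-Hochberg adjustment over 14756 genes at 0.05. SE is the log2 fold change over the root of F. Alternatives were DESeq2 1.42.0, limma 3.58.1 (voom, or log2 of FPKM plus 1 or 0.1), other scalings and filters, fits of only the groups compared, and leaving out each library. The fit was tested on simulated counts in which 200 genes changed. Of 100 genes changed 2-fold, 37 were recovered for MCAO against control, 31 for hypidone against MCAO and 29 for hypidone against control. Of 100 changed 4-fold, 72, 77 and 71 were recovered. The simulation called 114 or 115 genes per comparison, against 3015 with MCAO and 2437 between hypidone and MCAO in the data. Adjustment is stricter where fewer genes are called, so these recoveries do not give the power of those comparisons. Failing the test does not show that a member was unchanged. Members, gene and marker lists and motifs were chosen with earlier results of these data known. Named with all values are members called in at least 1 comparison. Of the other members, the 6 highest by mean FPKM and those with an unadjusted p under 0.05 were named by rule, and of each pathway list at most 4 called genes. Adcy4, Adcy5, Adcy6, Adcy10, Pde1c, Pde4c, Pde3a, Pde3b, Pde5a, Cenpo, Gnas and Creb1 were named after their values were seen. Positions are from GENCODE M21 and promoters from RefSeq.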

Additional observations from a re-analysis of the deposited data

How the results depend on the processing

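Among 20 pairs of a member and a comparison with an unadjusted p under 0.05, of which 12 were called, no sign changed in any of 401 values under alternatives. The call was lost in 80 of these values and gained in 31, and each of the 12 calls was lost in at least 1 alternative. Leaving out each library in turn gave 0 to 4 members higher and 0 to 5 lower for MCAO against control, in place of 3 and 4, and 0 to 7 higher and 0 to 2 lower for hypidone against MCAO, in place of 4 and 1. With limma voom and quality weights the counts were 5 and 8, and 10 and 5. DESeq2 called 3 members higher and 6 lower for MCAO against control, and 6 higher and 2 lower for hypidone against MCAO. A fit of only control and MCAO called 0 higher and 0 lower, as did the same fit with a replicate block, 0 and 0. Shares of all tested genes called under these alternatives are not given here, so the counts cannot be read as particular to the members. The pairing by title number was checked: control and MCAO libraries of the same number had correlations of deviations of 0.12, 0.12 and -0.04. Control 4 and control 5 correlated best with the MCAO library of the same number, and control 6 with MCAO 4. Correlations this small cannot settle whether the numbers pair samples, and the main fit did not use them as pairs. Without control 5 and MCAO 5 together, chosen after seeing the data, 7 members were higher and 4 lower for hypidone against MCAO. Hypidone against control stayed at 0 in both directions under all alternatives run. The cause of these shifts was not tested. Depth limits Adcy10, Pde6a, Pde6b, Pde6c, Pde6g and Pde6h, which had between 16 and 98 counts over all libraries.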

Other observations

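Within the summed FPKM of the 10 cyclase genes, the share of Adcy9 was 8.79% in control, 16.2% in MCAO and 8.37% with hypidone (means of 3 libraries). The share of Adcy2 was 27.6%, 20.7% and 28.9%, and that of Adcy8 3.23%, 1.78% and 4.00%. Adcy1, the most abundant, kept a share of 43.2%, 42.1% and 41.6%. Among the Pde genes Pde8b had 5.84%, 3.14% and 6.70% of the summed FPKM, Pde4b 2.61%, 4.34% and 2.91% and Pde2a 29.2%, 31.5% and 29.5%. These shares are descriptions of the levels reported above and were not tested.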
